A study of Saccharomyces cerevisiae with 12 samples.

Results

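The comparison of fhf3 with wild-type covers every gene that had a log2 fold change for this mutant: 5777 of the 5777 genes with values, read on 6 of the 12 arrays. Wild-type here is Saccharomyces cerevisiae Y55 (JT20150), which the labels give as MAT-alpha and carrying the maltose locus MAL1 and the sucrose locus SUC1. The mutant fhf3 is a UV-induced derivative of it, labelled as fermenting maltose fast, and the other groups used, fhf1 and fhf2, are mutants of the same kind. The sources used here do not name the mutated genes. Every strain had 3 cultures of its own, in rich medium with 20% maltose, stirred and semi-aerobic, in 200 mL at 22 °C, and cells were taken on day 2. mRNA was copied to double-stranded cDNA, labelled with Cy3 and hybridised to 1-colour arrays, on which 8 probes stand for a gene. The arrays carry the reference strain's genes, so a Y55 gene that differs in sequence can give a low signal. A triplicate hybridisation is mentioned in the labels, and whether the single value per culture analysed here averages several is unknown. Since both strains were sampled on the same day, strain and progress of the fermentation cannot be told apart.

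Yeast growing on a good sugar devotes its transcription to ribosomes and to the enzymes of growth, under protein kinase A and related kinases. As sugar runs short, the transcription factors Msn2 and Msn4 switch on stress genes, and cells store trehalose and glycogen. The kinase Snf1 then releases the genes for respiration, fatty acid use and gluconeogenesis from glucose repression. Maltose enters through a proton-coupled permease and is split to glucose inside the cell, so growth on it touches the same control circuits.

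Levels are log2 array signals as deposited, and a log2 difference is fhf3 minus wild-type. The fhf3 arrays were dimmer as a whole: the median gene had a log2 difference of -0.28, and array medians were 12.09, 12.13 and 12.45 in fhf3 against 12.30, 12.98 and 12.53 in wild-type. "Relative" below means after subtracting the median gene. Medians of gene lists are relative throughout. Single-gene differences from wild-type are as deposited unless called relative. "Rose" and "fell" refer to a no-change test (limma, Benjamini-Hochberg adjusted p under 0.05) of the relative difference. It called 253 genes up (4.39% of the 5769 genes with array values) and 668 down (11.6%). Setting each array to a common level first lowered the median SD of a gene within groups from 0.306 to 0.159 and called 1257 up (21.8%) and 1360 down (23.6%), so the share of rises among the calls moved from 27% to 48%. A stricter test against a 2-fold change, on differences as deposited, called 5 genes up (0.0867%) and 164 down (2.84%). Its split was 9 up and 108 down with the median gene subtracted, 25 and 167 with each array centred, a setting added after seeing the data, and 30 and 150 after quantile normalization. Errors of single genes (SE 0.26 to 0.29 on the log2 scale) are drawn close to a common value by limma, and 3 cultures a group limit their precision. Leaving out 1 culture ended the call of 27 genes named below, whose adjusted p then lay between 0.0509 and 0.287: ACS1, ALP1, CLB6, COX5A, COX5B, DAL4, DDR48, DSE4, FBP26, GIS1, GPA2, GPD1, HAP4, HHO1, HHT1, HO, HXT15, PHO90, RDS2, REG2, RPA49, SAM3, SPS1, SUC2, TOS3, UGA4 and YAK1. The 3 fhf3 arrays correlated with each other at 0.983 to 0.987 and with wild-type arrays at 0.858 to 0.882, across genes.

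**Figure D1:**
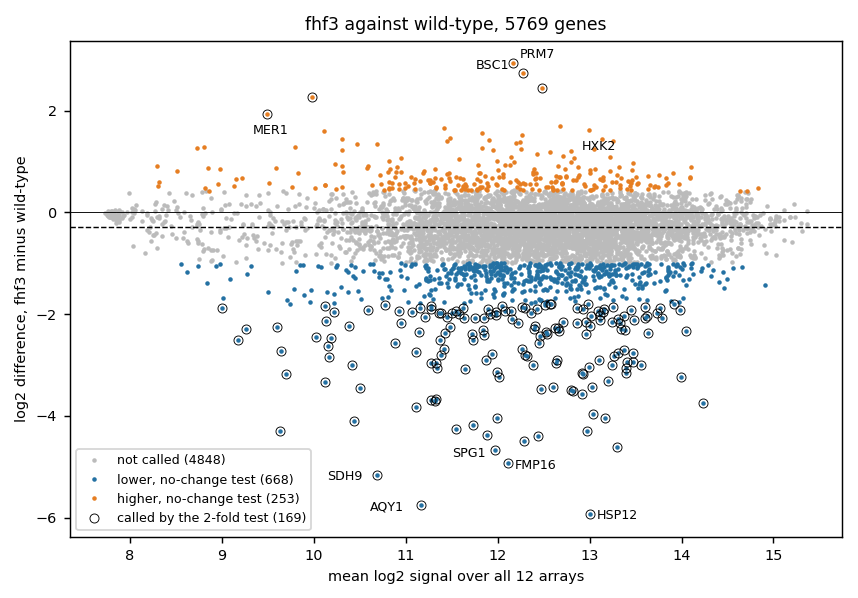
Log2 difference between fhf3 and wild-type (y axis) against the mean log2 signal over all 12 arrays (x axis) for 5769 genes; the dashed line is the median gene, colours mark the no-change test and circles the 2-fold test. The falls reach -5.93 for HSP12 and the rises 2.93 for PRM7, and genes beyond 2-fold lie mostly on the falling side.

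The changes were lopsided in size. Relative to the median gene, 363 genes were lower by more than 1 on the log2 scale and 91 were higher by that much, while 31 genes were lower by more than 3. Over bins of the mean signal of all 12 arrays, the share of genes that the 2-fold test called down was 0.585% of 171 genes at 7 to 9, 5.08% of 118 at 9 to 10, 4.75% of 379 at 10 to 11, 3.96% of 1186 at 11 to 12, 2.34% of 2009 at 12 to 13, 2.85% of 1508 at 13 to 14 and 0.503% of 398 at 14 to 16. The dimmest and the brightest genes had the lowest shares.

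The deepest fall was in a small stress protein gene. HSP12 (YFL014W), which encodes a small protein that stabilises membranes under stress, had signals of 8.64, 8.83 and 9.10 in fhf3 and 14.57, 15.11 and 14.68 in wild-type. The groups lay far apart, a 60.9-fold difference (log2 difference -5.93, SE 0.26, adjusted p = 5.17e-48). Of 26 hydrophilins and small stress genes, 17 fell and the other 9 did not pass, with a median of -1.04 against 0 over all genes. SIP18 (YMR175W), a hydrophilin that protects cells during drying, read 8.77, 9.00 and 9.10 in fhf3 and 13.33, 13.87 and 13.16 in wild-type, and its relative GRE1 (YPL223C) had a log2 difference of -3.45. HBT1, a substrate of a ubiquitin-like modifier, and DDR2, a gene induced by many stresses, differed by -4.61 and -3.75. DDR2 read 11.35, 11.78 and 11.25 in fhf3 and 15.02, 15.46 and 15.14 in wild-type. Among those that did not pass, the polyubiquitin gene UBI4 differed by -0.24 and STF2, which stabilises inhibited ATP synthase, by -0.46, with 95% intervals of the relative difference of -0.48 to 0.56 and -0.70 to 0.34. In RNA from whole cultures, fewer cells expressing a gene and less RNA per cell cannot be told apart.

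Stationary-phase genes had the lowest median of the 50 lists. Of 19 measured, 14 fell and 5 did not pass, and the median was -1.58. FMP16 (YDR070C), whose product was found in mitochondria, read 8.69, 8.87 and 9.05 in fhf3 and 13.41, 14.41 and 13.58 in wild-type. SPG1 (YGR236C) and SPG4 (YMR107W), both needed for survival in stationary phase, had log2 differences of -4.66 and -4.30. Genes of mitochondrial membranes were among them: FMP45 had -4.39, and OM14 and OM45, proteins of the outer membrane, had -2.33 and -1.74. SPG5, a proteasome regulator of the same phase, differed by -0.37 and RGI1, a gene of respiratory energy metabolism, by -0.72, and neither passed.

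The water channel gene AQY1 (YPR192W) had the second largest fall, with signals of 8.17, 8.21 and 8.23 in fhf3 and 13.64, 14.25 and 13.98 in wild-type. The fhf3 values lay close to the lowest signals of any gene on these arrays (7.61 to 7.78), and whether signal still follows RNA amount there was not tested. The paralogous water channel gene AQY2 differed by -0.72 and did not pass. Of 14 genes of glycerol and water, 6 fell. Genes for taking up and using glycerol fell: the glycerol-proton symporter gene STL1 had -1.97, the glycerol kinase gene GUT1 -1.57 and the mitochondrial glycerol-3-phosphate dehydrogenase gene GUT2 -2.07. In glycerol synthesis GPD1 fell (log2 difference -1.09), while GPD2, GPP1 and GPP2 differed by -0.15, 0.18 and 0.01 and did not pass. The glycerol channel gene FPS1, which lets glycerol out, had a difference of 0.30.

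**Figure D2:**
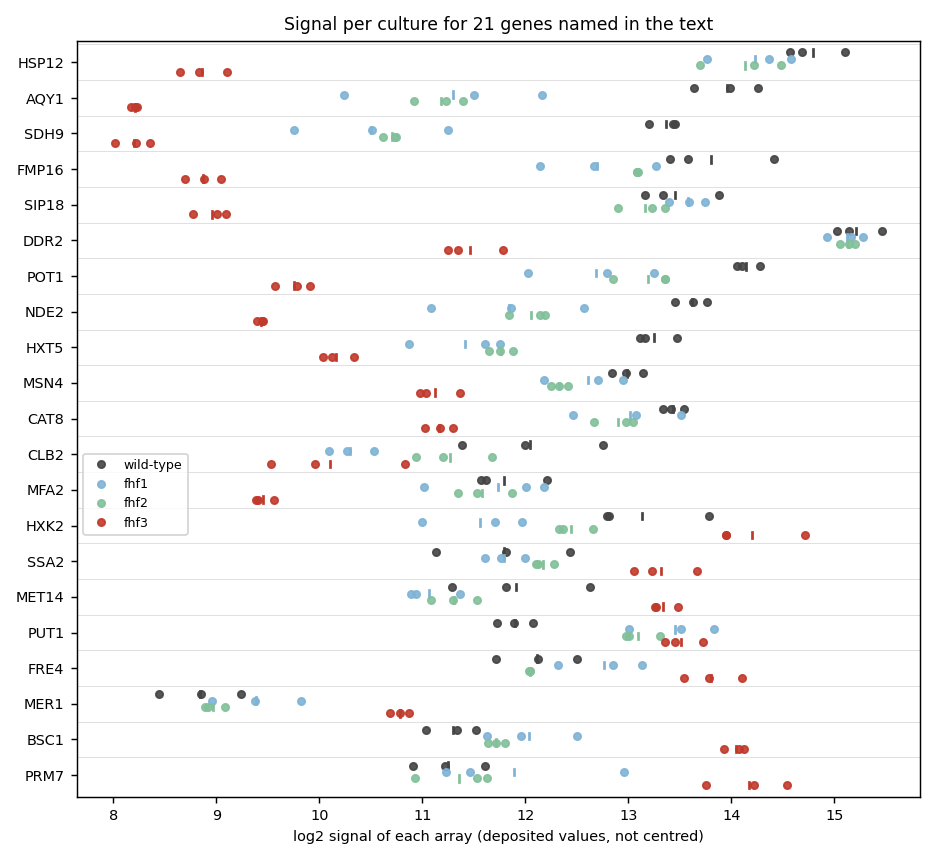
Log2 signal of each culture (points; x axis) for 21 genes in wild-type, fhf1, fhf2 and fhf3, with a bar at each group's mean of 3. In HSP12, AQY1, FMP16 and SIP18 the fhf3 cultures read at most 9.10 and every other culture at least 10.24.

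Storage carbohydrate genes were lower together. Of 9 trehalose genes 5 fell, and 9 of 9 fell once each array was centred. Of 13 glycogen genes 8 fell (10 after centring). The deepest falls were in the trehalase gene NTH2 (-1.94) and in the glycogenin gene GLG2 (-2.37), which primes glycogen chains. Genes of breakdown fell beside those of synthesis: ATH1, the acid trehalase, differed by -1.40 and the debranching enzyme gene GDB1 by -1.42. The glycogen phosphorylase gene GPH1 differed by -0.58 and did not pass.

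Among chaperones the changes went both ways. Of 30 genes, 6 fell and 2 rose (8 and 5 after centring). After centring 26.7% fell and 16.7% rose, near the 23.6% and 21.8% of all genes. The stress-induced cytosolic Hsp70 genes SSA3 and SSA4 fell (-2.44 and -2.23), as did HSP30 (YCR021C), a plasma membrane protein that restrains the proton pump (-3.24). SSA2 (YLL024C), the Hsp70 made in growing cells, rose: its signals were 13.23, 13.06 and 13.66 in fhf3 and 11.13, 12.43 and 11.81 in wild-type, with no overlap (log2 difference 1.53, adjusted p = 6.82e-09). SSA1 is nearly identical to SSA2 in sequence, so probes may read both, and its difference was -0.48. BTN2, which sorts misfolded proteins, also rose (1.21). The Hsp90 genes HSP82 and HSC82 differed by -0.24 and -0.03, and the disaggregase gene HSP104 by -0.54, without passing. The genes HSP32, HSP33 and SNO4 are near-identical copies at chromosome ends and had log2 differences of -3.32, -3.17 and -3.44; the array may not separate them.

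Of 32 antioxidant genes 12 fell. GPX1, a glutathione peroxidase, led with -3.49, and both catalase genes fell, the peroxisomal CTA1 (-2.16) and the cytosolic CTT1 (-2.11). The main thioredoxin peroxidase gene TSA1 differed by -0.14, while its stress-induced paralogue TSA2 fell (-1.90).

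Several enzymes are encoded by a pair of genes. Some pairs had unlike values, and others, such as the pyruvate kinase genes CDC19 and PYK2 (-0.16 and -0.12) and the cytochrome oxidase subunit genes COX5A and COX5B (-1.01 and -1.09), had like ones; the pairs below were chosen after their values were seen. SDH1 encodes the flavoprotein of succinate dehydrogenase and SDH9 (YJL045W) a minor form of it. SDH9 read 8.22, 8.02 and 8.35 in fhf3 and 13.19, 13.44 and 13.45 in wild-type, a log2 difference of -5.16 (adjusted p = 4.06e-40), and SDH1 had -1.17 (adjusted p = 0.00843). The fhf3 values of SDH9 lie as near the arrays' lowest signals as those of AQY1, with the same limit. In the pentose phosphate pathway, which makes NADPH and ribose, the minor isozymes fell by much more than 2-fold. GND2 (6-phosphogluconate dehydrogenase) had -3.57, TKL2 (transketolase) -3.05, NQM1 (transaldolase) -4.30 and SOL4 (6-phosphogluconolactonase) -1.98. The major isozymes GND1, TKL1, TAL1 and SOL3 had -0.18, 0.39, -0.59 and -0.39 and did not pass; TKL1 rose after array centring (adjusted p = 2.96e-05).

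**Figure D3:**
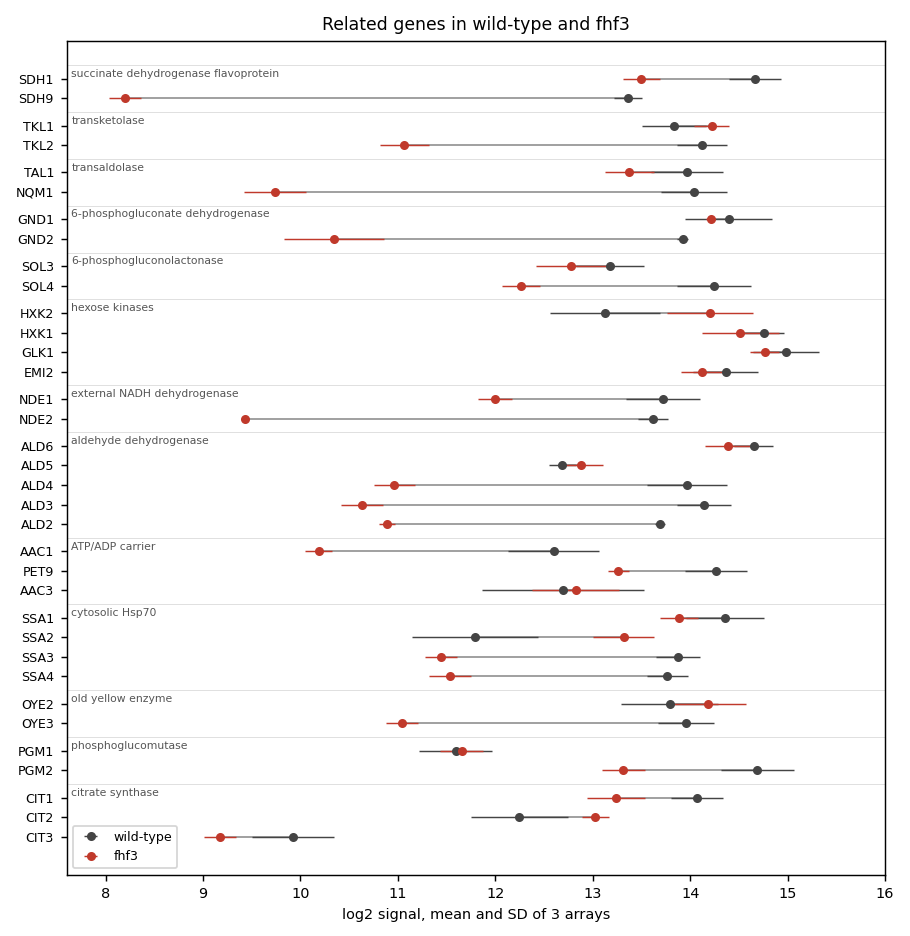
Mean log2 signal (x axis; bars, SD of 3 arrays) in wild-type and fhf3 for members of 13 sets of related genes. SDH9, NQM1, GND2, TKL2 and NDE2 lie at least 3 apart on the log2 scale between the strains, while TKL1, GND1, TAL1 and SOL3 range from a log2 difference of -0.59 to 0.39.

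Other sets were mixed. The aldehyde dehydrogenases ALD2, ALD3 and ALD4 fell (-2.80, -3.51 and -3.01), ALD2 and ALD3 being close copies, and ALD6 and ALD5 differed by -0.26 and 0.20. The external NADH dehydrogenase gene NDE2 read 9.45, 9.45 and 9.39 in fhf3 and 13.63, 13.76 and 13.45 in wild-type, and NDE1 fell too but by less (-1.72 against -4.18). The old yellow enzyme gene OYE3 fell (-2.91) and OYE2 had 0.39. Differences between paralogues were not tested, and levels of different probes are not comparable.

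Regulators of these programs changed as well. MSN4 (YKL062W), a transcription factor of stress genes, read 10.98, 11.03 and 11.37 in fhf3 and 12.84, 13.14 and 12.97 in wild-type and fell (-1.86, adjusted p = 3.14e-07). Its paralogue MSN2 differed by -0.29 (95% interval of the relative difference -0.53 to 0.51). Of 26 genes of protein kinase A and stress control 7 fell and 19 did not pass. They included the kinase subunit gene TPK2 (-1.28), the GTPase gene RAS1 (-1.95), GPA2 (-1.07), which signals glucose, and GIS1 (-1.22) and YAK1 (-1.21), which are known to act against protein kinase A. TPK3 had -0.14, RAS2 -0.59, and the kinase gene RIM15, needed to enter the resting state, -0.42. After array centring 11 of the 26 fell, and 1, the phosphodiesterase gene PDE2, rose.

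Activators of genes for non-sugar carbon were lower. Of 13, 8 fell, with a median of -0.80. CAT8 (YMR280C), which turns on gluconeogenic genes, read 11.30, 11.02 and 11.17 in fhf3 and 13.34, 13.41 and 13.54 in wild-type, and ADR1 (YDR216W), which turns on peroxisomal and ethanol genes, had -2.25. SIP4 (-1.46), the zinc-finger regulator USV1 (-2.11), PIP2 (-1.28), RDS2 (-1.08) and the heme activator subunits HAP2 (-1.41) and HAP4 (-1.04) fell too. HAP1, the heme sensor, differed by -0.01. Of 20 genes of glucose repression, 2 fell (10%, against 11.6% of all genes). They are SIP2, a subunit of the Snf1 kinase (-1.90), and the phosphatase subunit REG2 (-1.08). The kinase gene SNF1 itself had -0.41, the repressor genes MIG1 and MIG2 -0.73 and -0.14, and TOS3, a kinase upstream of Snf1, rose with overlapping cultures (0.43, adjusted p = 0.0469).

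Few maltose genes passed the test. Of 12 maltose and sucrose genes, the invertase gene SUC2 rose (0.59, with overlapping cultures) and the other 11 did not pass. The maltase gene MAL12 read 13.86, 13.94 and 14.38 in fhf3 and 14.42, 14.71 and 14.33 in wild-type, and MAL32, which is nearly identical to it, 14.15, 13.99 and 14.54 in fhf3 and 14.33, 14.56 and 14.40 in wild-type. The permease gene MAL31 read 14.20, 14.28 and 14.81 in fhf3 and 14.61, 15.06 and 14.69 in wild-type, a log2 difference of -0.35 (95% interval of the relative difference -0.59 to 0.45). In these 3 genes the fhf3 and wild-type cultures overlapped. MAL11 and MAL13, the permease and activator genes of the reference strain's MAL1 locus, lay at the lowest signals of the arrays in both strains. MAL11 read 7.75, 7.72 and 7.78 in fhf3 and 7.71, 7.83 and 7.79 in wild-type, and MAL13 read 7.74, 7.68 and 7.87 in fhf3 and 7.77, 7.89 and 7.78 in wild-type, so a difference could not be seen at this signal. The activator gene MAL33 had 0.19 and rose after array centring (adjusted p = 0.00144).

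Hexose transporter genes gave mixed results. Of 18 genes 6 fell (33.3%, against 11.6% of all genes) and 1 rose (5.56%, near the 4.39% of all genes). HXT5, a transporter of slow-growing cells, read 10.03, 10.12 and 10.33 in fhf3 and 13.16, 13.47 and 13.11 in wild-type and had -3.09. HXT13, HXT15 and HXT17, close copies known to carry polyols, had -2.01, -1.27 and -1.84. The low-affinity transporter gene HXT3 fell (-1.23) and HXT10 rose (0.81). The high-affinity HXT6 and HXT7, nearly identical to each other, had -0.48 and -0.47, below the wild-type cultures in every array but without passing. On signals as deposited, 1833 of all 5769 genes (31.8%) lay below in this way. Relative to the median gene the 2 differed by -0.20 and -0.18. HXT1 had -0.51 and HXT2 -0.62. HXT13, HXT15 and HXT17 stand beside polyol dehydrogenase genes, which fell with them: DSF1 and MAN2 encode mannitol dehydrogenases (-2.76 and -2.82), and SOR2 encodes a sorbitol dehydrogenase (-1.85).

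Of 23 glycolysis genes 2 rose (8.7%, against 4.39% of all genes) and 1 fell (4.35%, against 11.6%). HXK2 (YGL253W), the hexokinase that also takes part in glucose repression, read 13.95, 13.95 and 14.71 in fhf3 and 12.81, 13.78 and 12.79 in wild-type and rose (1.07, SE 0.27, adjusted p = 2.58e-05). HXK1, GLK1 and EMI2, the other hexose kinases, had -0.24, -0.22 and -0.24. PFK27, which makes the glycolytic activator fructose 2,6-bisphosphate, rose (0.68), and FBP26, which degrades it, fell (-1.04). The trunk enzymes TDH3, PGK1, ENO2 and CDC19 lay between -0.21 and -0.12, close to the median gene. In ethanol formation PDC1, ADH1 and ADH2 had -0.17, -0.37 and -0.13 and did not pass. PDC6, a minor pyruvate decarboxylase, and ACS1, which activates acetate, fell (-1.24 and -1.15). 

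Genes of fatty acid breakdown fell widely. Of 16 beta-oxidation genes 12 fell, with a median of -1.16. POT1 (YIL160C), the thiolase of the last step, read 9.57, 9.78 and 9.91 in fhf3 and 14.10, 14.28 and 14.05 in wild-type, and FOX2, the enzyme before it, had -3.44. The acyl-CoA synthetase genes FAA1, FAA3 and FAA4 (-0.12, 0.28 and -0.35) and the CoA diphosphatase gene PCD1 (-0.95) did not pass. Of 28 peroxins, which build peroxisomes, 5 fell (13 after centring). In gluconeogenesis and the glyoxylate cycle 7 of 15 fell and 3 rose. The malate synthase gene MLS1 and the gluconeogenic PCK1 had -2.97 and -2.79, whereas ICL1, the isocitrate lyase of the same cycle, and FBP1 had -0.68 and -0.83 and did not pass. FBP1 fell after array centring (adjusted p = 0.00279), and ICL1 fell with no centring (adjusted p = 0.0439). DAL7, a second malate synthase that is made under nitrogen limitation, rose (1.36), as did CIT2, the peroxisomal citrate synthase (0.78). In carriers, CRC1, which imports carnitine esters, and SFC1, which exchanges succinate for fumarate, fell (-3.24 and -2.84), and the oxaloacetate and oxodicarboxylate carriers OAC1 and ODC2 rose (1.11 and 0.71).

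Respiration genes shifted by less per gene but in the same direction. Among 36 respiratory chain and ATP synthase genes 14 fell, with a median of -0.60, and 29 fell after array centring. The ATP synthase inhibitor gene INH1 fell most (-2.29). Of 18 genes of the citric acid cycle 9 fell (16 after centring), led by ACO1 (-1.68). Genes of the mitochondrial ribosome had a median of -0.28. Of 68 genes 1 fell (1.47%, against 11.6% of all genes), fewer than over all genes. After centring 24 of 68 fell (35.3%, against 23.6%).

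**Figure D4:**
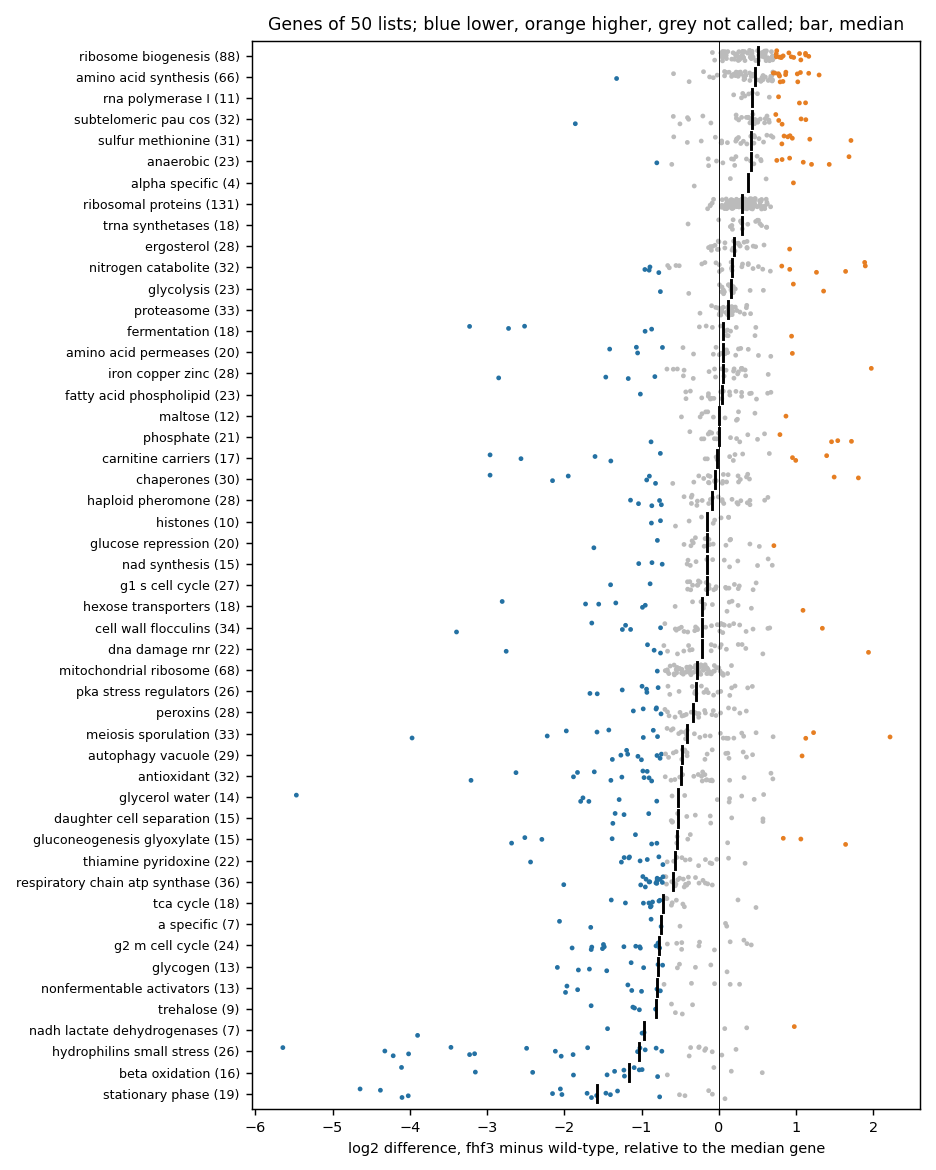
Relative log2 difference between fhf3 and wild-type (x axis) of each measured gene in 50 lists, sorted by median, with the number measured in brackets; colours mark the no-change test and black bars the list medians. Stationary-phase genes and beta-oxidation lie at the low end, and ribosome biogenesis and amino acid synthesis at the high end.

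Some genes of growth rose relative to the median gene, by small amounts. With no centring fewer passed as higher: 6 of 88 for ribosome biogenesis, 2 of 11 for RNA polymerase I and 5 of 66 for amino acid synthesis. Of 131 cytosolic ribosomal protein genes, 0 did so. Over all genes it was 114 of 5769 (1.98%). Of 88 ribosome biogenesis genes 16 rose, with a median of 0.50, and 63 rose after array centring. SLX9 (YGR081C), which helps export the small subunit, read 11.58, 11.92 and 12.04 in fhf3 and 10.66, 11.53 and 10.71 in wild-type and had 0.88 (adjusted p = 3.58e-04). Others that rose are ARX1, a large-subunit export factor (0.84), and UTP6 and UTP8 of the small-subunit processome (0.78 and 0.66). RNA polymerase I, which makes ribosomal RNA, had 3 of 11 genes up (9 of 11 after centring), RPA12, RPA34 and RPA49 (0.84, 0.76 and 0.49). The 131 genes of cytosolic ribosomal proteins had a relative median of 0.30, and a median of 0.02 on differences as deposited. The no-change test called 0 of them, 13 were higher at an unadjusted p under 0.05, and 38 rose after array centring. Of 66 amino acid synthesis genes 14 rose (44 after centring) and 1 fell. GDH3, the glutamate dehydrogenase of poor carbon, fell (-1.61), and GDH1, its growth counterpart, rose (0.88).

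Of 31 genes of sulfate and methionine metabolism 7 rose, and 18 rose and 2 fell after centring, with MET14 (YKL001C), the adenylyl-sulfate kinase, at 13.27, 13.25 and 13.48 in fhf3 and 11.28, 12.62 and 11.81 in wild-type. MET16, the next enzyme, had 0.90 and MET3, the first, 0.34, which did not pass. The sulfate permease gene SUL1 differed by -0.87.

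Genes of nitrogen, phosphate and metal uptake went both ways. PUT1 (YLR142W), which begins proline breakdown, and DAL3 (YIR032C), which acts in allantoin breakdown, rose (1.61 and 1.61), while the GABA genes UGA2 and UGA4 and the allantoin permease gene DAL4 fell (-1.24, -1.18 and -1.17). Of 32 nitrogen-regulated genes 6 rose and 4 fell (12 and 8 after centring). Before centring 18.8% rose, against 4.39% of all genes, and 12.5% fell, near the 11.6% of all genes. PHO84, the high-affinity phosphate transporter, SPL2, a regulator of low-affinity uptake, and GIT1, a glycerophosphoinositol transporter, rose (1.18, 1.44 and 1.26), and the low-affinity transporter PHO90 fell (-1.16). The acid phosphatase gene PHO5 had 0.09. The copper transporter genes CTR3 and CTR1 fell (-3.13 and -1.46), and FRE4 (YNR060W), a ferric reductase, rose (1.69). Of 22 thiamine and pyridoxine genes 9 fell, with THI4 at -2.72; THI5, THI11, THI12 and THI13 are near-identical copies and had values between -1.54 and -1.30. Of 23 genes linked to low oxygen 7 rose (12 after centring), among them the sterol importer AUS1 (1.15), its regulators SUT1 and UPC2 (0.92 and 0.63), the wall protein DAN4 (0.81) and the sphingoid phosphatase YSR3 (1.40). The hypoxic genes ANB1 and HEM13 had -0.08 and 0.26 and did not pass, and COX5B, the hypoxic subunit of cytochrome oxidase, fell (-1.09).

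Cell cycle genes fell at the stage of mitosis. Of 24 genes of G2 and M phase 13 fell, with a median of -0.78. The mitotic cyclin genes CLB1 and CLB2 had -2.18 and -1.93, and the factor SWI5, which acts as cells leave mitosis, -1.79. CLB2 read 9.53, 9.95 and 10.83 in fhf3 and 11.38, 12.75 and 11.99 in wild-type, the cultures of each strain being spread over more than 1. Of 27 G1 and S genes 2 fell (7.41%, against 11.6% of all genes). They are WHI5, an inhibitor of the G1 transition (-1.68), and CLB6 (-1.17). The G1 cyclin genes CLN1, CLN2 and CLN3 had -0.65, -0.56 and 0.20. Of 15 genes of daughter separation 4 fell (9 after centring), ASH1, DSE3, DSE4 and EGT2 (-1.63, -1.65, -1.19 and -1.51). RNR3, a ribonucleotide reductase subunit induced by DNA damage, fell (-3.04), and HUG1, induced by the same damage pathway, rose (1.66); RNR2 and RNR4 had -0.82 and -0.38.

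Markers of mating type and sporulation were checked against the MAT-alpha label. The alpha-specific genes STE3, MF(ALPHA)1 and SAG1 were bright in wild-type (13.40, 13.86 and 14.34). The fourth, MF(ALPHA)2, had a wild-type mean of 11.90, below the 12.38 of the a-specific gene MFA1. The a-specific genes were not at the arrays' floor, with 7 wild-type means from 9.55 to 12.38, and 4 of the 7 fell. MFA2 and MFA1, the a-factor genes, had -2.35 and -1.94. The mean of the 7 genes per array ran from 9.47 to 9.7 in fhf3 and from 10.31 to 11.07 in wild-type, which do not overlap. These means are of deposited signals, on which the fhf3 arrays were dimmer as a whole. For the 4 alpha-specific genes the ranges were 13.25 to 13.81 and 12.95 to 13.89, and MF(ALPHA)2 rose (0.68). Of 8 haploid markers 2 fell, RME1 and HO (-1.32 and -1.15). Of 6 sporulation markers IME1, the inducer of meiosis, and SPS1 fell (-2.26 and -1.08), and IME2, NDT80, SPO11 and SMK1 had -0.46, -0.23, -0.18 and 0.01. The part of a mixture of cell types in the falls described above was not tested.

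Other groups had smaller or divided changes. Of 33 meiosis and sporulation genes 8 fell (24.2%, against 11.6% of all genes) and 3 rose (9.09%, against 4.39%). After centring 17 of them fell (51.5%, against 23.6%) and 7 rose (21.2%, near the 21.8% of all genes). SPS100 (YHR139C), a spore wall maturation gene, read 9.53, 9.47 and 9.89 in fhf3 and 13.79, 14.04 and 13.83 in wild-type. The meiotic wall genes SPS2 and DIT2 rose (0.84 and 0.94). Of 34 cell wall and flocculation genes 6 fell (17.6%, against 11.6% of all genes) and 1 rose (2.94%, against 4.39%). After centring 12 of them fell (35.3%, against 23.6%) and 5 rose (14.7%, against 21.8%). The mannoprotein gene CWP1 (YKL096W) read 8.91, 8.87 and 9.70 in fhf3 and 12.36, 13.55 and 12.62 in wild-type. FLO10, a flocculin, and the wall protein genes PIR1 and PIR3 fell (-1.53, -1.49 and -1.42), FLO11 differed by -0.83 without passing, and the sporulation glucanosyltransferase gene GAS4 rose (1.06). Of 29 autophagy and vacuole genes 9 fell (18 after centring), among them ATG3, ATG7 and ATG14 (-1.55, -1.33 and -1.48), and ATG5 rose (0.80). Of 20 amino acid permease genes AGP2, PTR2, ALP1 and SAM3 fell (-1.70, -1.35, -1.33 and -1.01), and AGP1 rose (0.67). These are 20% and 5% of the list, against 11.6% and 4.39% of all genes. Of 10 histone genes HHT1 and the linker histone gene HHO1 fell (-1.16 and -1.04), which is 20% against 11.6% of all genes. Gene copies of a core histone can share probes. Of 32 PAU and COS genes, families of near-identical copies at chromosome ends, 5 rose and PAU21 fell (-2.14), and after centring 21 rose and 3 fell. The 33 proteasome genes had a relative median of 0.12 (-0.17 as deposited), with 0 called by limma and 0 higher and 0 lower at an unadjusted p under 0.05.

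The 2-fold test called 5 genes up on the differences as deposited. PRM7 (YDL039C), a pheromone-regulated gene, read 14.22, 13.76 and 14.54 in fhf3 and 10.91, 11.61 and 11.22 in wild-type, and BSC1 (YDL037C) 13.93, 14.07 and 14.12 in fhf3 and 11.03, 11.34 and 11.52 in wild-type. YDL038C, which lies between them in the systematic order, had 2.45. All 3 passed the 2-fold test, with every fhf3 culture above every wild-type culture, as in 156 of all 5769 genes (2.7%). Whether they share a transcript was not tested. YGL006W-A, a small open reading frame, had 2.27, and MER1 (YNL210W), which promotes splicing of meiotic transcripts, read 10.69, 10.87 and 10.78 in fhf3 and 8.44, 9.24 and 8.85 in wild-type.

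Calls were spread over the genome. Chromosome medians of the relative difference lay between -0.087 and 0.056, and the 18 measured mitochondrial genes had a median of 0.165. Among 320 genes nearest the chromosome ends, 64 fell (20%) and 23 rose (7.19%), against 11.6% and 4.39% over all genes. Runs of 3 or 4 neighbours called alike numbered 27. They include SOR2, HXT15, THI13 and AAD4 on chromosome IV, YNR071C, HXT17 and MAN2 on chromosome XIV, HSP33, ERR1 and PAU21 on chromosome XV, and DDR48, PAI3, SIP18 and YMR175W-A on chromosome XIII. Several of these, such as HXT15, HXT17, MAN2, HSP33, THI13 and PAU21, have near-identical copies elsewhere.

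The other mutants, grown alike, were set against fhf3 directly. The no-change test called 1137 genes between fhf3 and fhf1 (598 higher in fhf3, 10.4%, and 539 lower, 9.34%) and 977 between fhf3 and fhf2 (446 higher, 7.73%, and 531 lower, 9.2%). Both comparisons share the fhf3 arrays with the one above. HSP12 read 14.58, 13.76 and 14.36 in fhf1 and 14.22, 14.48 and 13.70 in fhf2, and its relative differences were -4.99 from fhf1 and -4.85 from fhf2. HXK2 read at most 11.97 in fhf1 and 12.36, 12.33 and 12.65 in fhf2, below wild-type in the mean of both, with relative differences of 3.03 and 2.18. SPG4 is an example of the opposite case. It read 9.14, 8.41 and 9.40 in fhf1 and 8.46, 9.01 and 8.63 in fhf2. The relative differences of fhf3 from them were -0.33 (95% interval -0.86 to 0.19) and -0.01 (-0.53 to 0.52), neither passing. The G2 and M list had a median of -0.16 against fhf1 and -0.41 against fhf2, and 1 of its 24 genes was lower in fhf3 than in fhf1 and 6 than in fhf2. Ribosome biogenesis had 66 of 88 genes higher in fhf3 than in fhf1 and 55 of 88 than in fhf2, and cytosolic ribosomal proteins had 95 and 68 of 131.

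**Figure D5:**
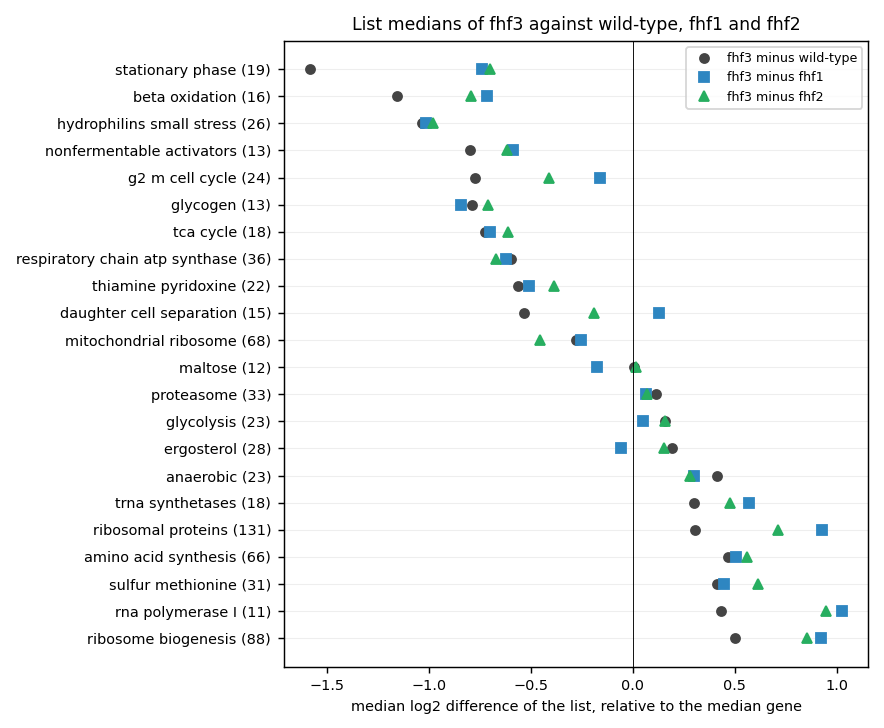
Median relative log2 difference (x axis) of 22 lists in fhf3 minus wild-type, minus fhf1 and minus fhf2. The ribosome biogenesis median is 0.50 against wild-type and 0.93 and 0.86 against fhf1 and fhf2; the stationary-phase medians are -1.58, -0.74 and -0.70.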

How the data were processed

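mRNA of 3 cultures each of wild-type, fhf1, fhf2 and fhf3 was read on arrays; fhf3 and wild-type are the 6 compared first. Per the deposited table, values are log2 signals per gene and array, already processed by the authors; no source used here gives the background correction, normalization or probe summary, and the submitters' processing notes name limma. The authors' deposited table also gives log2 fold changes, t scores, p-values and adjusted p-values; the log2 fold changes recomputed here equal these within 8.33e-09, and 169 of its 170 calls of fhf3 have array values. cDNA was double-stranded, so antisense transcripts cannot be told apart, per the labels' protocols. Of 5880 rows, 5777 had values, and 8 of these had no array values; 5763 names were found in the R64 annotation and 6 were not.

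A 4-group limma fit (3.58.1, R 4.3.3) over 12 arrays gave each gene's difference. The no-change test subtracted the median gene, and the 2-fold test used limma's treat without subtraction; p-values are two-sided and Benjamini-Hochberg adjusted over 5769 genes, called under 0.05. Total degrees of freedom were 185.8. In an alternative each array's median deviation from the gene means was subtracted first. Tests were checked on simulated data for this comparison (5769 genes, 200 changed, up and down in near-equal numbers). Genes given a change of 0.8 were called in 35.3% of cases by the no-change test and in 91.2% with each array centred. Those given 1.5 were called in 100% by both, against 16.7% by the 2-fold test. Of 5569 unchanged genes, the no-change test called 5, and 10 with each array centred. With so few and balanced changes, the simulation could not test median subtraction where many genes fall. Further alternatives are in the closing section. No correction for slide or background could be made from these values.

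Members and lists were chosen with earlier results of these data known. Named genes come from a rule. It takes all members of the maltose, hexose transporter, glucose repression, activator, kinase and marker lists. Among genes called against wild-type whose cultures do not overlap, it takes the 10 largest rises and falls and up to 4 per direction in each list. Against each mutant it takes the 5 largest called differences per direction, with no condition on overlap. Paralogues, neighbours, uncalled genes and others outside it were chosen after their values were seen. A few genes that the rule covers are not reported here. Replicates are separate cultures per the labels. The p-values rest on a spread that limma draws mostly from all genes together (177.8 of 185.8 degrees of freedom), not on each gene's own cultures. Without array centring that spread also holds differences in level between whole arrays.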

Additional observations from a re-analysis of the deposited data

Results flagged for a closer look

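Effects that differed between mutants, by the test of the difference itself, are given here as values. The no-change test called 1137 genes between fhf3 and fhf1 and 977 between fhf3 and fhf2. Relative to the median gene, fhf3 minus fhf1 was -4.99 for HSP12, -4.24 for SIP18, -3.91 for NQM1, -3.65 for YER053C-A and -3.44 for FMP16. On the rising side it was 3.03 for HXK2, 2.67 for PRM7, 2.65 for MET14, 2.55 for YFL051C and 2.48 for IMD3. Against fhf2, fhf3 differed by -4.85 in HSP12, -3.92 in NQM1, -3.79 in FMP16, -3.78 in SIP18 and -3.75 in YER053C-A. The rises against fhf2 were 3.24 in PRM7, 3.14 in YDL038C, 2.75 in BSC1, 2.45 in MET14 and 2.23 in MER1. Each of these genes passed the no-change test in the comparison given, and both comparisons share the fhf3 arrays.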

How the results depend on the processing

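Several choices moved the counts. Against wild-type the 921 calls became 1431 with no centring (114 up, 1317 down), 2617 with each array centred and 2655 after quantile normalization, the median SD of a gene falling from 0.306 to 0.159 once arrays were centred. The 2-fold test called 112 genes in place of 169 without the dimmest 25% of genes, where fewer genes were tested, and its 5 rises and 164 falls became 9 and 108 with the median gene subtracted, 30 and 150 after quantile normalization and 25 and 167 with each array centred. Against fhf1 the 1137 calls became 1967, 2826 and 2750 under no centring, array centring and quantile normalization. Against fhf2 the 977 became 2007, 2667 and 2660, and 2333 with only the 6 arrays of both groups; the cause was not tested. Leaving out 1 culture gave 638 to 1083 calls against wild-type, 129 to 206 in the 2-fold test, 726 (without fhf1 replicate 1) to 1286 against fhf1 and 610 (without fhf2 replicate 2) to 742 against fhf2. Same-numbered fhf3 and wild-type cultures deviated together at r of 0.279, 0.246 and -0.053, and unlike-numbered ones at -0.375 to 0.157. With 3 cultures a group, these values cannot settle whether equal numbers are pairs. The main test did not pair them. With the replicate block 839 genes were called, 1056 against fhf1, 882 against fhf2 and 164 in the 2-fold test. The block with each array centred, added after seeing the data, called 2806. Of the named genes, 27 lost their call without at least 1 culture (adjusted p 0.0509 to 0.287). Without centring, RPA49, SUC2, TOS3, UPC2 and UTP8 no longer passed (adjusted p 0.0534 to 0.247), and TOS3, SAM3 and COX5A did not with the block (0.0636, 0.0569 and 0.0565). Calls were gained as well, by 25 named genes with each array centred, 30 after quantile normalization and 9 with no centring. With each array centred AQY2, RGI1, FLO11, FBP1, PCD1, MIG1, RNR2 and SUL1 then fell, and FPS1, GPP1, HEM13, MET3 and OYE2 were among the genes that rose. No called direction among the named genes turned under the alternatives run. The variance trend with robust fitting gave 921 calls.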
